A study of Mus musculus with 19 samples.

Results

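The genes followed here, 9 in number, were the Y-family DNA polymerases *Polk*, *Polh*, *Poli* and *Rev1*, the polymerase zeta genes *Rev3l* and *Mad2l2*, the damage-recognition genes *Ddb2* and *Xpc*, and *Rrm2b*, which serves dNTP supply. The genes were taken by name from the 51912 genes of the count tables, and all 9 passed the filter on low counts in all 3 comparisons. The counts came from the E13.5 neocortex of 19 mouse embryos on a mixed C57BL/6 and 129 background. The 7 ctrl embryos were labelled as controls with no further genotype. In the 5 cKO-E embryos *Ino80*, which encodes the ATPase of the INO80 nucleosome remodeler, was deleted conditionally by *Emx1*-Cre. In the 7 dKO-E embryos *Emx1*-Cre deleted both *Ino80* and *Trp53*, the gene for p53. *Emx1*-Cre acts in cortical neural progenitors and their progeny, so microglia, vessels and interneurons in the dissected tissue kept both genes.

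Translesion synthesis lets a replication fork pass a damaged base. Y-family polymerases insert a nucleotide opposite the lesion, REV1 serves as their scaffold, and polymerase zeta, with REV3L as its catalytic subunit and MAD2L2 (REV7) as an accessory subunit, extends from it. Nucleotide excision repair removes bulky lesions: DDB2 and XPC find the lesion before it is cut out, and ribonucleotide reductase, of which RRM2B is a small subunit, makes dNTPs for the repair patch. Several of these genes are known targets of p53 in other settings. In proliferating cells these pathways act beside homologous recombination.

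Libraries held between 820915 and 8095810 counts (median 2952788), so that 3 counts equalled 0.370 to 3.73 CPM (counts scaled to a common library size after TMM normalization). Differences were tested with edgeR's quasi-likelihood test, with p values adjusted over all genes of a comparison by the Benjamini-Hochberg procedure. A gene was called against ctrl at a false discovery rate (FDR) of 0.001 and between the mutants at 0.05. Tissue identity followed the labels: *Emx1* ranged from 97.7 to 128 CPM in ctrl and *Pax6* from 177 to 257 CPM, although *Sox2* was listed at 0 in every library. The study stained SOX2 protein in E13.5 cortex, so this 0 does not show absence, and its reason was not tested. *Emx1* and *Pax6* had lower means in cKO-E, by log2 fold changes of -0.34 (adjusted p = 0.0103) and -0.35 (adjusted p = 0.0211). Cortical progenitor and neuron markers (11 genes) summed to 1518–1991 CPM in ctrl, 1387–1718 in cKO-E and 1203–1707 in dKO-E. At an FDR of 0.05, 5 of the 10 tested were lower in cKO-E (9.88% of all genes) and 2 in dKO-E (10% of all genes), with list medians of -0.33 and -0.20. As whole-gene counts do not resolve deleted exons, *Ino80* cannot check the deletion: its mean was 122 CPM in ctrl, 167 in cKO-E and 187 in dKO-E. *Trp53*, likewise counted over the whole gene, had means of 43.9, 39.5 and 34.8 CPM, and its adjusted p was 0.0196 in dKO-E against ctrl. Microglial markers (12 genes) summed to 6.49–17.0 CPM in ctrl, 32.3–41.1 in cKO-E and 5.89–11.8 in dKO-E. Ventral telencephalic and interneuron markers (8 genes) summed to 9.21–84.3, 64.2–119 and 29.0–69.7 CPM.

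Promoter sequence is shown for the 4 genes with a RefSeq window, as these include the member that changed most (*Polk*) and a relative that did not pass a threshold (*Polh*). RefSeq windows on GRCm38.p6, from 250 bases before a start to 50 after it, were found for 4 of the 9 genes (*Polk*, *Polh*, *Rev1* and *Mad2l2*), 6 windows in all. Printed 5′ to 3′ on the strand of the gene is the longest stretch of a window that lies outside every annotated exon, with CpG dinucleotides in capitals. The second *Mad2l2* window is not printed.
*Polk*, upstream start, chr13:96542645-96542734, minus strand: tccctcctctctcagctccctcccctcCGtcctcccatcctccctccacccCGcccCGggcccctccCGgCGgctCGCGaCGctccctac
*Polh*, chr17:46202646-46202781, minus strand: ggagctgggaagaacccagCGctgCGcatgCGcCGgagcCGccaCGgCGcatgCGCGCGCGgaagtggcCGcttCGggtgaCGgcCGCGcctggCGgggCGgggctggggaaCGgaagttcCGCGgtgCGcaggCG
*Rev1*, chr1:38129802-38129916, minus strand: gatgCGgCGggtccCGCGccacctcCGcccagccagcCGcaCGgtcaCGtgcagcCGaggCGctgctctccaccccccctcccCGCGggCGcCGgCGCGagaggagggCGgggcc
*Mad2l2*, inside the gene as GENCODE gives it, chr4:148130699-148130914, plus strand: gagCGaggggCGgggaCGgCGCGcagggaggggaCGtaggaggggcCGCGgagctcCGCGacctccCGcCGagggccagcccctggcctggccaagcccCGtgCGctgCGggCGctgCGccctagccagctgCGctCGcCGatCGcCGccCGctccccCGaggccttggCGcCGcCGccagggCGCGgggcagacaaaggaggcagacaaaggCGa
*Polk*, second start inside the gene, chr13:96519188-96519437, minus strand: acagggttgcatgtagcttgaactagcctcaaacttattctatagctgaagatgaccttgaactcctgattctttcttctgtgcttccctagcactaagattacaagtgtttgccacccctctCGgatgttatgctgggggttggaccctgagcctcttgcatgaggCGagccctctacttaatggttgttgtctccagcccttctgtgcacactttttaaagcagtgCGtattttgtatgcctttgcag

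The whole 300-base windows of *Polh* and *Rev1* held 42 and 51 CpG, that of the upstream *Polk* start held 25 and those of *Mad2l2* held 41 and 17, against a median of 7 over 32851 windows. The second *Polk* window held 4. The upstream *Polk* window also reached exons of *Col4a3bp*, which starts on the opposite strand, the *Polh* window reached an exon of *Xpo5*, and the first *Mad2l2* window one of *Draxin*. Both strands were searched for the p53 half-site and for AANATGGC, the core bound by YY1, a partner of INO80; the motifs share no letters in these windows. The half-site was matched in the second *Polk* window alone, as GAACTAGCCT at chr13:96519409-96519418, 231 bases before that start and outside exons. Of all windows, 8.36% held a half-site. AANATGGC was matched in the upstream *Polk* window alone (chr13:96542758-96542765, in an exon of *Col4a3bp*), and 6.05% of all windows held it. A match describes letters, and binding was not measured here.

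Among the 9 genes, *Rev3l* and *Rev1* had the most counts per length. In ctrl, *Rev3l* was at 30.3 ± 1.66 CPM per kb of exon (SD, n = 7) and *Rev1* at 23.6 ± 1.31. *Mad2l2* followed with 9.64 ± 1.55, then *Polh* with 5.98 ± 0.760. Next came *Xpc* (4.67 ± 0.466), *Polk* (4.32 ± 0.656) and *Ddb2* (3.82 ± 0.583), whose ranges overlapped one another. *Poli* (2.79 ± 0.591) and *Rrm2b* (1.54 ± 0.295) were lowest, and their ranges did not overlap. The ranges of *Polh* and *Xpc* overlapped, and so did those of *Ddb2* and *Poli*, whereas the first 4 genes in this order were separated from one another in ctrl. Because it is not stated whether reads in introns were counted, levels were also set per kb of gene span, and there *Rrm2b* (0.376 ± 0.0721) and *Polk* (0.387 ± 0.0589) were lowest, beneath *Ddb2* (0.411 ± 0.0628) and *Poli* (0.514 ± 0.109).

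**Figure D1:**
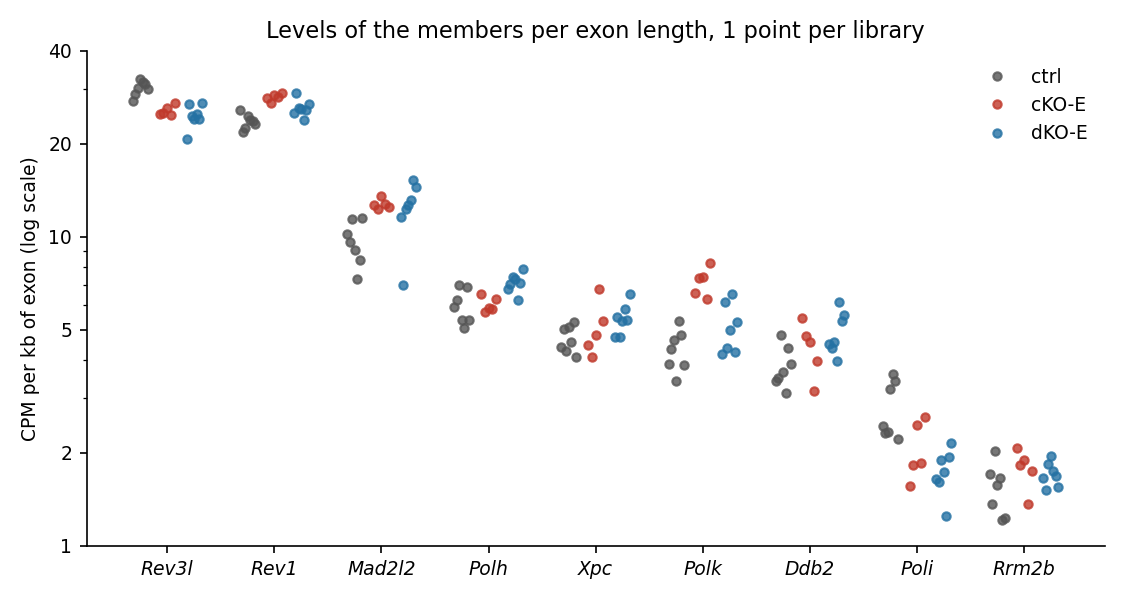
Level of each of the 9 genes in CPM per kb of exon (log axis), 1 point per library, for ctrl (grey), cKO-E (red) and dKO-E (blue), ordered by the ctrl mean. *Rev3l* and *Rev1* lie above 20 in every library, and *Rrm2b* has the lowest ctrl mean, 1.54.

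*Polk* was upregulated in cKO-E, and dKO-E embryos had less of it than cKO-E embryos. *Polk* (ENSMUSG00000021668.15, chromosome 13 of GRCm38, 96480690–96542579, minus strand) encodes polymerase kappa, which inserts bases opposite bulky guanine adducts. In ctrl its level ran from 19.0 to 29.6 CPM with a median of 24.0. The cKO-E embryos A to E were at 36.5, 40.8, 41.1, 34.8 and 45.5 CPM, all above every ctrl embryo. In dKO-E the level ran from 23.2 to 36.2 CPM with a median of 27.7, and 5 of the 7 embryos fell within the ctrl range. The group means were 24.0 ± 3.64 (SD, n = 7), 39.7 ± 4.22 (n = 5) and 28.3 ± 5.19 CPM (n = 7). Against ctrl, cKO-E had 1.70 times the level, a log2 fold change of 0.77 (adjusted p = 9.62e-05, SE 0.11). In dKO-E it was 0.22 (95% interval -0.03 to 0.47, adjusted p = 0.231). Tested directly, dKO-E was below cKO-E, with a log2 fold change of -0.53 (adjusted p = 0.00462, SE 0.12). The mutant groups overlapped in this last comparison, as dKO-E embryo E at 36.2 CPM was above cKO-E embryo D at 34.8. *Polk* was the single member called in cKO-E at 0.001, where 1.06% of 11660 genes were called higher and 2.32% lower.

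**Figure D2:**
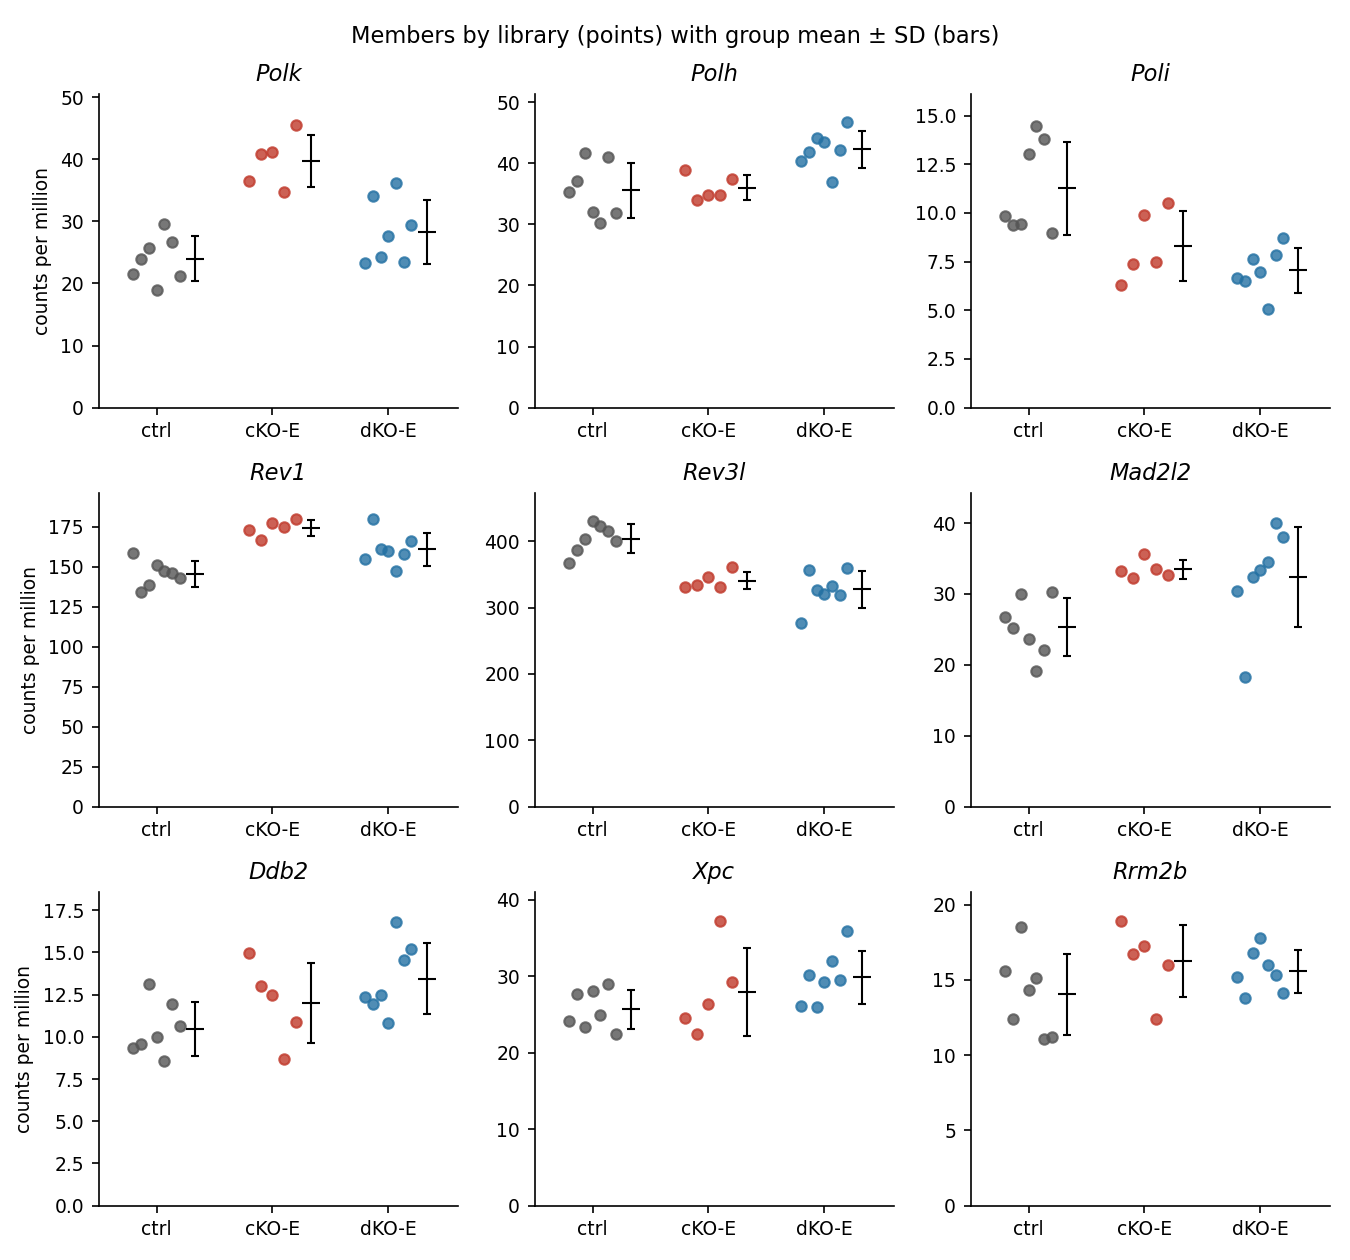
CPM of the 9 genes in each library (points) for ctrl (7), cKO-E (5) and dKO-E (7), with mean ± SD as black bars and axes from 0. All cKO-E points of *Polk*, *Rev1* and *Mad2l2* lie above all ctrl points, and all mutant points of *Rev3l* lie below them.

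Within litters the order was alike. In litter 4 the cKO-E embryo was at 40.8 CPM of *Polk* and the ctrl embryo at 25.7. The cKO-E embryo of litter 5 was at 41.1 and its 2 ctrl littermates at 19.0 and 29.6. In litter 7 the cKO-E embryo was at 45.5 and the ctrl embryos at 26.7 and 21.3. Litter 1 held ctrl embryos at 21.5 and 24.0 and dKO-E embryos at 23.2, 34.1 and 24.2. With litter as a block, *Polk* in cKO-E had a log2 fold change of 0.81 and an adjusted p of 0.00173, and the call at 0.001 was lost. Batch 1 alone gave 0.79 (adjusted p = 0.000779), and batch 2 alone, with 3 ctrl and 2 cKO-E embryos, gave 0.71 (adjusted p = 0.0576). The 7 dKO-E embryos came from 2 litters, A to C from litter 1 and D to G, all male, from litter 2. Litter 2 held no ctrl embryo, so litter and genotype cannot be told apart for those embryos against ctrl. No litter held both cKO-E and dKO-E embryos, so litter and genotype cannot be told apart between them. The direct difference was -0.52 in batch 1 (adjusted p = 0.0407) and -0.74 in batch 2 (adjusted p = 0.109). Of the 5 cKO-E embryos 4 were female, and of the 7 dKO-E embryos 5 were male. With sex as a covariate the difference was -0.50 (adjusted p = 0.0100). Microglial and interneuron markers moved with *Polk* across the groups (sums above), and their part in its level was not tested. In these bulk samples, fewer cells of a type and less RNA per cell cannot be told apart.

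**Figure D3:**
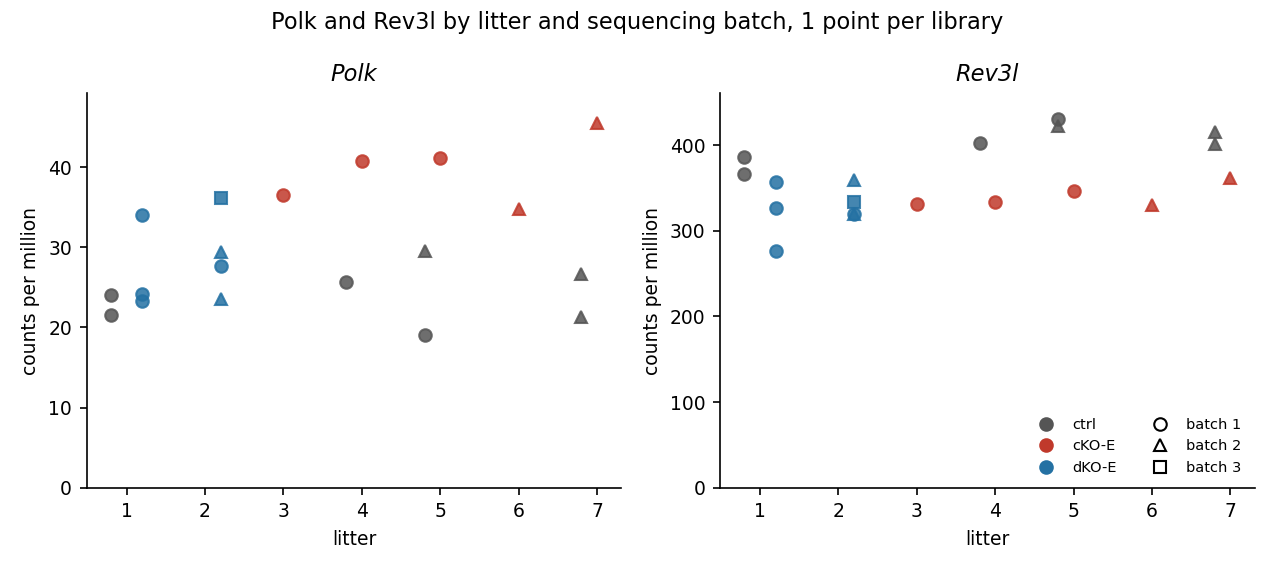
CPM of *Polk* (left) and *Rev3l* (right) against litter number, 1 point per library, colored by group and shaped by sequencing batch, with axes from 0. In litters 4, 5 and 7 the cKO-E point lies above the ctrl points for *Polk* and below them for *Rev3l*.

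*Rev1* and *Mad2l2* were also higher in every cKO-E embryo than in any ctrl embryo, by less than *Polk* and without reaching the FDR of 0.001. *Rev1* (ENSMUSG00000026082.11, chromosome 1, 38052786–38129801, minus strand) was at 134–159 CPM in ctrl, with a median of 146. In cKO-E its levels were 173, 167, 177, 175 and 180 CPM. The dKO-E range was 147–180 with a median of 160, between the other groups and overlapping both. On the log2 scale, cKO-E embryos exceeded ctrl by 0.26 (adjusted p = 0.00327, SE 0.05). The dKO-E value was 0.14 (adjusted p = 0.0957), and the mutants differed by -0.11 (95% interval -0.24 to 0.01, adjusted p = 0.236). Of the *Rev1* exon bases, 26.6% (1643 bases) overlap exons of *Eif5b* on the opposite strand, and the strand setting of the counting is not given. *Eif5b* itself had log2 fold changes of 0.12 in both mutants (adjusted p = 0.237 and 0.261).

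*Mad2l2* (ENSMUSG00000029003.11, chromosome 4, 148130384–148145699, plus strand) ranged from 19.1 to 30.2 CPM in ctrl, with a median of 25.2. The cKO-E embryos were close together, at 33.2, 32.3, 35.6, 33.5 and 32.6 CPM. The dKO-E embryos ranged from 18.3 to 39.9 CPM around a median of 33.3, and embryo B, at 18.3, was below every other library of the series. Against ctrl, log2 fold changes came to 0.39 for cKO-E (adjusted p = 0.0170, SE 0.10). For dKO-E the value was 0.29 (adjusted p = 0.193). Without cKO-E embryo C the adjusted p in cKO-E was 0.0517, and without dKO-E embryo B the log2 fold change in dKO-E was 0.42 with an adjusted p of 0.0115. Between the mutants it was -0.09 (95% interval -0.40 to 0.22, adjusted p = 0.761).

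*Rev3l*, the partner of *Mad2l2* in polymerase zeta, went the other way, with every mutant embryo of both groups below every ctrl embryo. *Rev3l* (ENSMUSG00000019841.15, chromosome 10, 39732118–39875211, plus strand) ranged from 367 to 430 CPM in ctrl, with a median of 403. The cKO-E embryos were at 331, 334, 346, 330 and 361 CPM, all below ctrl. In dKO-E the range was 276–359 CPM with a median of 326, again wholly below ctrl. The cKO-E log2 fold change was -0.24 (adjusted p = 0.00576, SE 0.06). That of dKO-E was -0.31 (adjusted p = 0.00137, SE 0.06). The mutants differed by -0.06 (95% interval -0.20 to 0.07, adjusted p = 0.595). *Rev3l* thus missed the FDR of 0.001 in the main test. In cKO-E it passed with DESeq2 (adjusted p = 0.000302). In dKO-E it passed with DESeq2 (1.26e-05), the likelihood-ratio test (0.000215) and 1 fit over all libraries (0.000591). Over its alternatives the adjusted p ranged from 0.000302 to 0.155 in cKO-E and from 1.26e-05 to 0.158 in dKO-E. It was above 0.05 in sequencing batch 2 alone in cKO-E (0.155) and in dKO-E (0.102), where the log2 fold changes were -0.24 and -0.30, and with litter as a block in dKO-E (0.158, log2 fold change -0.24). The litter block compared dKO-E with ctrl within litter 1 alone. The cortical marker sums above had lower medians in both mutants too, and their part in *Rev3l* was not tested.

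At an FDR of 0.05, then, 3 members were higher in cKO-E (*Polk*, *Rev1*, *Mad2l2*) and 1 was lower (*Rev3l*), where 7.31% of all genes tested were higher and 9.88% lower. For *Rev1* the adjusted p was above 0.05 in 2 of 25 alternatives (each batch alone, up to 0.101), and for *Mad2l2* in 6 of 25 (up to 0.270, in batch 2 alone). The same 3 members had every cKO-E embryo above ctrl, as had 3.21% of genes, and *Rev3l* had every embryo below, as had 5.56%. The median log2 fold change of the 9 members was 0.24, and that of all genes was 0.02.

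Of the other Y-family polymerases, *Poli* had lower values in every dKO-E embryo than in any ctrl embryo, and *Polh* was called in no comparison. Polymerase iota, encoded by *Poli* (ENSMUSG00000038425.17), is an error-prone partner in lesion bypass. Its counts were low, from 6 to 62 per library. The ctrl embryos ranged from 8.96 to 14.5 CPM with a median of 9.86, and the cKO-E embryos were at 6.31, 7.37, 9.91, 7.45 and 10.5 CPM, which overlapped ctrl. The dKO-E range was 5.05–8.70 CPM with a median of 6.98, below every ctrl embryo. For cKO-E the log2 fold change was -0.39 (adjusted p = 0.172). The dKO-E change reached -0.64 (adjusted p = 0.00861, SE 0.16). Between the mutants it was -0.24 (95% interval -0.63 to 0.14, adjusted p = 0.436), so a difference between them was not detectable at this depth. With litter as a block, *Poli* in dKO-E had a log2 fold change of -0.45 and an adjusted p of 0.268. That block compared dKO-E with ctrl within litter 1 alone. The adjusted p was 0.0578 in batch 1 alone and 0.411 in batch 2 alone.

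*Polh* (ENSMUSG00000023953.8, chromosome 17, 46171355–46202645, minus strand) encodes polymerase eta, which copies past ultraviolet-induced thymine dimers. It ranged from 30.2 to 41.6 CPM in ctrl, with a median of 35.3. Levels in cKO-E were 38.8, 34.0, 34.9, 34.8 and 37.4 CPM, inside the ctrl range. The dKO-E range was 37.0–46.8 CPM with a median of 42.2, and it overlapped both other groups. Log2 fold changes were 0.01 in cKO-E (95% interval -0.19 to 0.21, adjusted p = 0.989), 0.23 in dKO-E (adjusted p = 0.0730) and 0.23 between the mutants (adjusted p = 0.0779). Scaled by total counts in place of TMM, the last was 0.28 with an adjusted p of 0.0359.

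No member was called in dKO-E against ctrl at 0.001 by edgeR's quasi-likelihood test, where 0.246% of 11381 genes were called higher and 2.34% lower. Of the members, 3 were higher and 2 lower when p was left unadjusted at 0.05, where 1496 and 1876 of the 11381 genes were. The likelihood-ratio test and DESeq2 called 1 member each, and their shares of all genes are not given here. At an FDR of 0.05, 0 members were higher and 2 lower (*Rev3l* and *Poli*), against 5.45% and 10% of all genes. None was above and these 2 were below ctrl in every dKO-E embryo, as were 1.21% and 3.22% of genes. The members' median log2 fold change was 0.17, and that of all genes was 0.01. Between dKO-E and cKO-E, 0 members were higher and 1 (*Polk*) lower, against 5.59% and 9.42% of 11746 genes. Neither direction had a member whose groups did not overlap, where 2.43% of genes were above and 4.66% below. Here the members' median was -0.09, and that of all genes was 0.02.

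**Figure D4:**
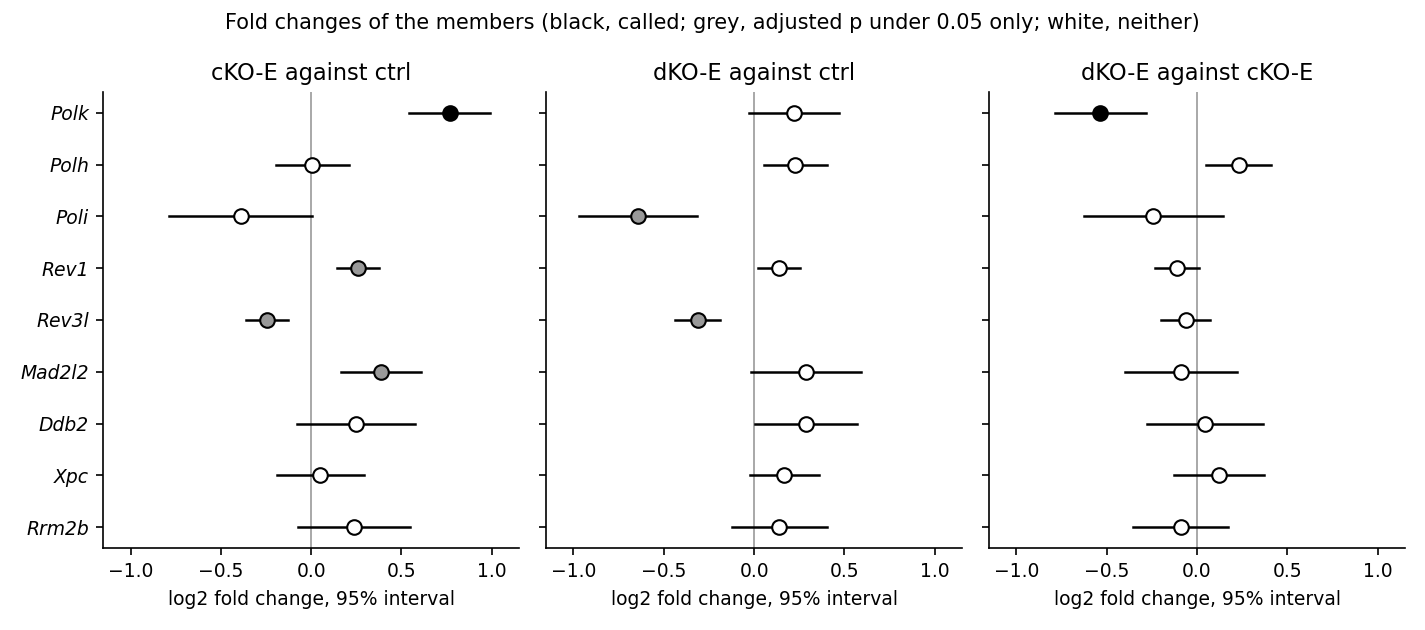
Log2 fold change of the 9 genes with its 95% interval in cKO-E against ctrl (left), dKO-E against ctrl (middle) and dKO-E against cKO-E (right). *Polk* is the one filled black, at 0.77 on the left and -0.53 on the right, and *Rev3l* is to the left of 0 in both comparisons with ctrl.

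The damage-recognition genes and *Rrm2b* were called in none of the comparisons. *Ddb2* (ENSMUSG00000002109.14, chromosome 2, 91211572–91236982, minus strand) encodes the subunit that binds ultraviolet lesions. It was at 8.55–13.1 CPM in ctrl and 10.8–16.8 in dKO-E, and the cKO-E embryos were at 14.9, 13.0, 12.5, 8.70 and 10.9 CPM. These groups overlapped. Log2 fold changes of *Ddb2* were 0.25 in cKO-E (95% interval -0.08 to 0.57, adjusted p = 0.305), 0.29 in dKO-E (0.01 to 0.57, adjusted p = 0.158) and 0.04 between the mutants (-0.28 to 0.36). Of its exon bases, 23.8% overlap exons of *Acp2* on the opposite strand.

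*Xpc* (ENSMUSG00000030094.8, chromosome 6, 91489305–91515888, minus strand) encodes the factor that opens global genome repair. Its range was 22.4–29.0 CPM in ctrl and 25.9–35.9 in dKO-E, and the cKO-E embryos were at 24.6, 22.4, 26.4, 37.3 and 29.2 CPM. The value of 37.3 came from embryo D, the shallowest library, where it rests on 30 counts. Log2 fold changes were 0.05 (95% interval -0.19 to 0.29, adjusted p = 0.931), 0.17 (-0.03 to 0.36, adjusted p = 0.285) and 0.12 (-0.13 to 0.37, adjusted p = 0.563) in the 3 comparisons.

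*Rrm2b* (ENSMUSG00000022292.15, chromosome 15, 37923952–37961318, minus strand) encodes the ribonucleotide reductase subunit used outside S phase and is known as a p53 target in other settings. It was at 11.0–18.5 CPM in ctrl, at 18.9, 16.7, 17.2, 12.4 and 16.0 in the cKO-E embryos and at 13.8–17.8 in dKO-E. Log2 fold changes were 0.24 in cKO-E (95% interval -0.07 to 0.55, adjusted p = 0.299), 0.14 in dKO-E (-0.12 to 0.40, adjusted p = 0.497) and -0.09 between the mutants (-0.35 to 0.17, adjusted p = 0.711). Its paralog *Rrm2*, the S-phase subunit, had 75.5 ± 14.0 CPM in ctrl (n = 7), 54.2 ± 14.0 in cKO-E (n = 5) and 72.9 ± 8.38 in dKO-E (n = 7). *Rrm2* gave -0.41 in cKO-E against ctrl (adjusted p = 0.0699), and dKO-E exceeded cKO-E by 0.41 (adjusted p = 0.0349, SE 0.13).

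The other genes of these pathways were read from lists written for the purpose. Of 28 further nucleotide excision repair genes, all tested, 1 was called in cKO-E: *Ercc5* (XPG), the nuclease that cuts on one side of the lesion, gained 0.47 on the log2 scale (adjusted p = 8.81e-05, SE 0.06), where 1.06% of all genes tested were called higher. Its level was 73.3 ± 1.83 CPM in ctrl (n = 7), 102 ± 9.49 in cKO-E (n = 5) and 79.8 ± 7.01 in dKO-E (n = 7). In the direct comparison of the mutants *Ercc5*, like *Polk*, was lower in dKO-E (-0.34, adjusted p = 0.00467), here with groups that did not overlap. *Mnat1*, an assembly factor of the TFIIH kinase, was higher in dKO-E by 0.26 in that comparison (adjusted p = 0.0169). Thus 1 of 28 was higher there and 1 lower, against 5.59% and 9.42% of all genes. In dKO-E against ctrl none of the 28 was called at 0.001 by edgeR's quasi-likelihood test. At an unadjusted p under 0.05, 8 were higher and 3 lower there, against 1496 and 1876 of all 11381 genes. At an FDR of 0.05, 2 were higher and 1 lower in cKO-E (7.31% and 9.88% of all genes). In dKO-E 4 were higher and 2 lower than in ctrl (5.45% and 10%). *Ercc4* was lower in both mutants (-0.59, adjusted p = 0.00516, and -0.51, adjusted p = 0.00929). *Gtf2h2* was higher in both (0.30, adjusted p = 0.0110, and 0.31, adjusted p = 0.00780). In dKO-E against ctrl but not in cKO-E, *Xpa* was lower (-0.52, adjusted p = 0.00603). Higher there alone were *Ercc3* (0.36, adjusted p = 0.00975), *Mnat1* (0.23, adjusted p = 0.0122) and *Xab2* (0.33, adjusted p = 0.0453). The list medians were 0.01, 0.11 and 0.08 in the 3 comparisons.

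Of 21 further genes of translesion synthesis and damage tolerance, 19 passed the filter. *Ube2b* was listed at 0 in every library, which as for *Sox2* need not mean absence. None was called in either mutant against ctrl at 0.001 by edgeR's quasi-likelihood test. At an unadjusted p under 0.05, 1 was higher and 4 lower in cKO-E, against 1672 and 1804 of all 11660 genes. In dKO-E at that p, 4 were higher and 2 lower, against 1496 and 1876 of all 11381 genes. At an FDR of 0.05, 0 were higher and 2 lower in cKO-E (*Pold1* and *Pold3*), against 7.31% and 9.88% of all genes. In dKO-E 1 was higher and 1 lower than in ctrl, against 5.45% and 10%. Between the mutants 6 of 19 were higher in dKO-E and 0 lower, against 5.59% and 9.42% of all genes. The 5 with the smallest p were *Zranb3*, a fork-remodeling translocase (0.46, adjusted p = 0.000912), *Atad5*, which unloads PCNA (0.30, adjusted p = 0.00833), the polymerase delta genes *Pold1* (0.48, adjusted p = 0.0108) and *Pold3* (0.27, adjusted p = 0.0290), and *Polq*, the end-joining polymerase (0.26, adjusted p = 0.0362). The list medians were -0.11 in cKO-E, 0.02 in dKO-E and 0.15 between the mutants.

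Of 15 genes of dNTP supply, 13 passed the filter. *Nme2* was listed at 0 in every library, which again need not mean absence. *Dut*, which removes dUTP, had a cKO-E value of -0.61 (adjusted p = 0.000214, SE 0.09) and was the 1 gene of 13 called lower, with 2.32% of all genes. None was called higher. *Tk1*, the S-phase thymidine kinase, exceeded its cKO-E level in dKO-E by 0.77 (adjusted p = 0.00574, SE 0.18), as did *Rrm2* (above), and these were 2 of 13 genes, against 5.59% of all genes. No gene of this list was called in dKO-E against ctrl by that test. At an unadjusted p under 0.05, 1 was higher and 1 lower there, against 1496 and 1876 of all 11381 genes. At an FDR of 0.05, 1 was higher there and 1 lower, against 5.45% and 10% of all genes. The lower gene was *Dut* (-0.36, adjusted p = 0.0382), and between the mutants *Dut* differed by 0.27 (adjusted p = 0.221). List medians were -0.01, 0.08 and 0.19.

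For comparison, 11 of 20 p53 targets outside repair passed the filter in all 3 comparisons. In cKO-E 3 of these 11 were called higher and 0 lower, against 1.06% and 2.32% of all genes, and their median log2 fold change was 0.54, with values from -0.17 to 2.03. Between dKO-E and cKO-E, 6 of the 11 were lower and 0 higher, against 9.42% and 5.59% of all genes, with a median of -0.57. In dKO-E against ctrl 0 of the 11 were called by that test, with a median of -0.14. At an unadjusted p under 0.05, 0 were higher and 4 lower there, against 1496 and 1876 of all 11381 genes. A further 7 targets, at means of 0.0948 to 2.27 CPM in ctrl, were tested in both comparisons with cKO-E and not in dKO-E against ctrl, so that they passed through their cKO-E values, and they are left out of these counts and medians. The members *Ddb2*, *Xpc* and *Rrm2b*, p53 targets in other settings, were not called. *Polk* was called in cKO-E (0.77) and in the direct test of the mutants (-0.53). *Polk* and the remaining members were not sorted by whether p53 targets them in other settings, so those named need not be all such members. Whether any member is a target of p53 in this tissue was not tested.

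**Figure D5:**
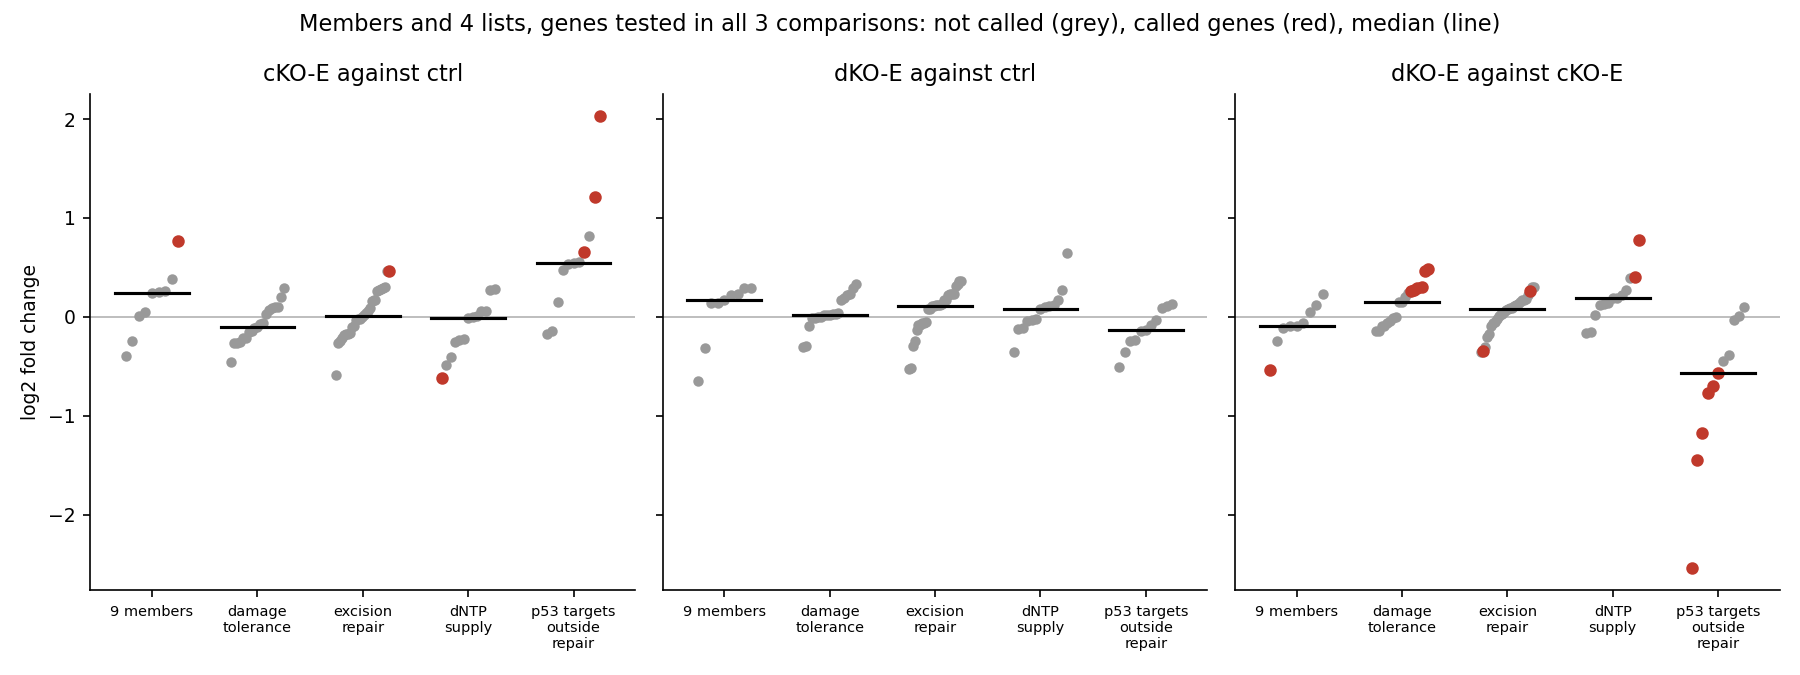
Log2 fold changes of the 9 members and of 4 gene lists in the 3 comparisons, 1 point per gene tested in all 3, red where called, with the median as a line. In cKO-E against ctrl the 11 p53 targets outside repair have a median of 0.54, and the members lie between -0.39 and 0.77 with a median of 0.24.

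Over all 19 libraries, the genes whose log2 CPM followed *Polk* most closely were *Mgmt*, which repairs O6-alkylguanine (Pearson r = 0.81), *Ebf3*, a transcription factor gene (r = 0.80), and *Galntl6*, a glycosyltransferase gene (r = 0.80), out of 12039 genes. These are descriptions over libraries that share groups, batches and litters.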

How the data were processed

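Ribosomal RNA was depleted from total RNA of each E13.5 cortex, and libraries were made by Click-seq, which tags each cDNA with a unique molecular identifier. The authors trimmed reads with cutadapt 1.13, aligned them to GRCm38/mm10 with STAR 2.5.2a, removed duplicates with UMI-tools 0.5.3 and deposited counts per gene from htseq-count 0.6.1p1 in intersection-nonempty mode. The feature type and strand setting are not given in the sources used here. Reads assigned to no feature were 4.96–12.5% and reads not uniquely aligned 14.9–20.9% per library, and both were left out.

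Groups came from the labels, 1 library per embryo. GENCODE M21 gave symbols and positions (51719 of 51912 identifiers found). Each comparison had its own fit without covariates in edgeR 4.0.16 (R 4.3.3): filterByExpr (minimum count 10), TMM factors and the quasi-likelihood test with Benjamini-Hochberg adjustment over all genes tested. The test takes the larger of its own p and a Poisson p for genes of low dispersion, so an adjusted p can exceed what the standard error implies. The standard error is the log2 fold change divided by the root of F. CPM used TMM factors over 19 libraries. DESeq2 1.42.0, other scalings, filters, covariates, blocks, batches, false discovery rates and each library left out were alternatives. The same tests were checked on simulated counts. Figures used matplotlib 3.10.9. Promoters came from RefSeq (GRCm38.p6).

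Named were all 9 members, genes of the first 3 lists called in a comparison (at most 5 per list and comparison, smallest p first), *Rrm2*, the targeted genes, and the 3 genes most correlated with each called member. *Eif5b*, *Acp2*, *Col4a3bp*, *Xpo5* and *Draxin* were added as neighbors, and *Emx1*, *Pax6*, *Sox2*, *Ube2b* and *Nme2* for levels, after values were seen. The members and lists were chosen with earlier results of these data known. Intervals and floors cover counting error and the spread between embryos alone. Same-group libraries differed beyond counting noise in all 52 pairs, so none was a repeat. Same-lettered embryos of different groups were not treated as pairs, as their deviations correlated at -0.36 to 0.14.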

Additional observations from a re-analysis of the deposited data

Results flagged for a closer look

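Values of the 9 members and 7 further genes were checked for single libraries far from the rest of their group by Dixon's test, in 48 sets of 1 gene in 1 group. Chance flags about 1 in 20 such sets, and 2 were flagged, neither of them a member. *Rrm2* reached 90.0 CPM in dKO-E embryo B, with the rest of that group at 63.9–74.7. *Zranb3* in ctrl embryo H was at 151 CPM, with the rest of that group at 84.5–110.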

How the results depend on the processing

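The number of members called was recomputed under each alternative. In cKO-E against ctrl it was 1, and it was 2 with DESeq2 (*Rev3l* added), 0 with litter as a block, 0 in sequencing batch 2 alone and 4 at a false discovery rate of 0.05. In dKO-E against ctrl it was 0, and it was 1 (*Rev3l*) with the likelihood-ratio test, DESeq2 and 1 fit over 19 libraries, and 2 at 0.05. Between dKO-E and cKO-E it was 1, and it was 2 with total counts (*Polh* added), 0 in batch 2 alone and 0 at 0.001. The cause of these moves was not tested. A batch alone held fewer embryos, so batch and number of embryos cannot be told apart there. Counts at another false discovery rate used the same fit. At 0.05, 7.31% of all genes were higher and 9.88% lower in cKO-E, and 5.45% and 10% in dKO-E. Between the mutants at 0.001, 45 of 11746 genes were higher and 323 lower. With total counts there at 0.05, 1064 were higher and 942 lower, against 657 and 1106 with TMM. Shares of all genes under the other alternatives are not given here, so those moves cannot be read as particular to the members. Leaving out each library in turn gave 1 to 1, 0 to 0 and 1 to 1. No log2 fold change called in the main test reversed. For *Polk* the alternatives ranged from 0.71 to 0.81 in cKO-E and from -0.74 to -0.48 between the mutants. Scaling by total counts shifted the median of all genes by 0.03, 0.09 and 0.05, and the share of calls that were higher went from 31.5% to 44.7%, from 9.52% to 40.4% and from 37.3% to 53.04%. With the replicate block, in which embryos of the same letter formed a block, 1, 0 and 1 members were called; the letters share no stated litter or day. A litter block could not be fitted between dKO-E and cKO-E. Counts of 6 to 62 limit *Poli*, and 7 to 101 limit *Ddb2*.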
